A study of Saccharomyces cerevisiae with 15 samples.

Results

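The meiosis and spore formation genes of budding yeast are followed here by the step at which they act: 4 regulators, 22 genes of early recombination and synapsis, 15 middle genes of the divisions and of spore assembly, and 12 genes of the spore wall. They were chosen by gene name and not by a threshold on measured values, though with earlier results of these data known. On the arrays, 49 of the 53 carry the chosen name. REC8 is listed there as SPO69, and GAS2, OSW1 and OSW2 are listed by systematic name, so these 4 were found through the systematic names of the RefSeq gene table of assembly R64. The 53 genes are part of 6256 on the arrays, and each kept all 7 spots of its 1 probe.

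The series compared ways of making strand-specific sequencing libraries and used 2 two-colour arrays as a separate measure of expression. Of its 15 samples, the 2 arrays are described here, and the 13 sequencing libraries were not analysed here. Each array held total RNA of BY4741 grown in YPD, labelled with Cy3, and genomic DNA of BY4741, labelled with Cy5, with no exchange of the dyes. BY4741 is a haploid derivative of strain S288C, of mating type a and without HIS3, LEU2, MET17 and URA3, and YPD is a rich medium with glucose. The strain of the DNA is tagged as progenitor in the labels, whose meaning was not resolved. The series design calls the RNA a mid-log sample. No diploid, starved or sporulating culture is among the arrays, so each value is a level in growing haploid cells set against the median gene of the same array. The arrays share 1 slide and 1 scan, per the file headers, and nothing in the labels says that they came from separate cultures. The p-values thus set each gene's distance from the median gene against the spread between these 2 arrays, and that spread may be technical.

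Yeast sporulates when a diploid cell with both mating types runs out of nitrogen and of a fermentable carbon source. IME1, the first switch, is held off in haploid cells and by glucose. Once made, Ime1 acts through the promoter-bound repressor Ume6 to turn on the early genes, among them IME2, whose kinase in turn helps to bring on NDT80. Ndt80 then competes with the repressor Sum1 at the promoters of the middle genes, and the genes of the spore wall follow.

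The RNA signal of the median gene was 1135 on array 1 and 1390 on array 2, after background subtraction. RNA signals under 3 SD of the negative control spots, 17.05 on array 1 and 32.9 on array 2, were raised to that floor, so a value at the floor is an upper bound of the ratio. The median DNA signal was 4184 and 4558. The strain labels were checked on marker genes. DNA at HIS3, LEU2, MET17 and URA3 ran from -3.11 to 7.39 over both arrays. RNA of the a-specific pheromone gene MFA1 was 10603 and 13173, and that of the alpha-specific gene MF(ALPHA)1 was 9.51 and 14.53. Of the other alpha-specific genes, SAG1 still gave RNA signals of 340 and 423. In a bulk sample, fewer cells that make a transcript and less of it per cell cannot be told apart.

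Nearly all of the 53 genes lay far below the median gene. In limma, with a Benjamini-Hochberg adjusted p under 0.05 and a log2(RNA/DNA) of at most -1, 50 of the 53 were called below the median gene, against 31.2% of all 6250 genes tested. None was called above it, against 28.2% of all genes. The 3 others were MSH5, a crossover gene, SPO73, a prospore membrane gene, and SPR6, a gene named for its induction in sporulation. The median log2(RNA/DNA) of the 53 genes was -4.09 on array 1 and -3.88 on array 2, and the median of their means, -4.04, is 6.07% of the median gene. Of the 53, 27 had a mean of -4 or lower and 10 a mean above -2.

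**Figure D1:**
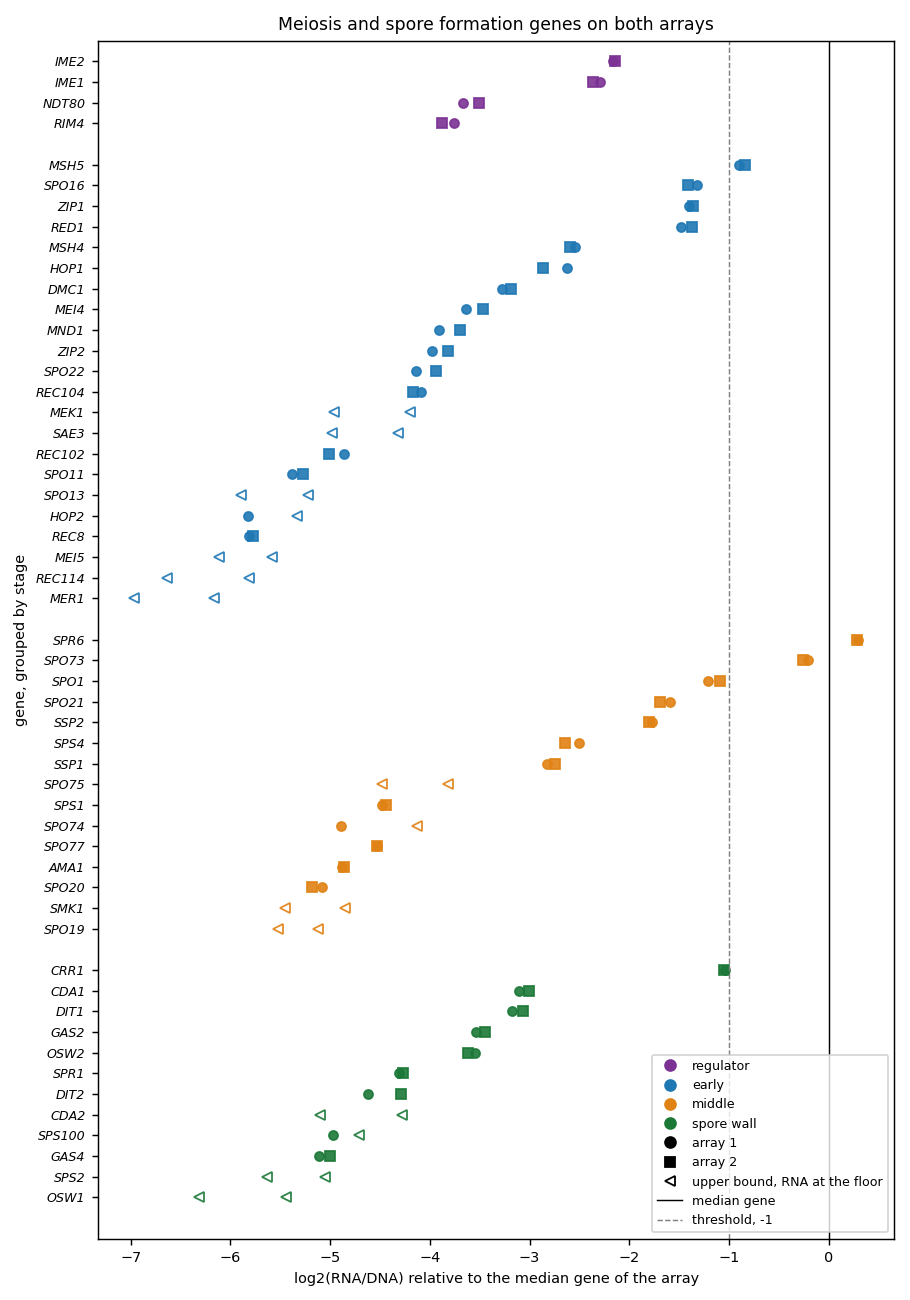
Each symbol is the log2(RNA/DNA) of 1 gene on 1 array (circle, array 1; square, array 2), relative to the median gene of that array, with genes grouped by stage and sorted within it; open triangles are upper bounds with RNA at the floor. All genes but SPR6 lie left of the median gene, and the symbols of both arrays nearly coincide except where RNA is at the floor.

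RNA was at the floor on both arrays for 12 of the 53 genes, against 7.14% of all genes. HOP2, SPO74 and SPS100 were at the floor on array 2 alone, which makes 15 genes at the floor on either array, against 8.77% of all genes. By the scanner software's own call, all 7 spots were well above background in the RNA channel on both arrays for 37 of the 53 genes, against 91.5% of all genes. Of the 38 genes with RNA above both floors, 35 were called below. Their median was -3.36. Their values repeated closely, with a median SD between the arrays of 0.066 and a highest SD of 0.24, for DIT2. Where RNA was under both floors the SD, up to 0.62, reflects the unequal floors and the DNA signal, and not RNA.

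**Figure D2:**
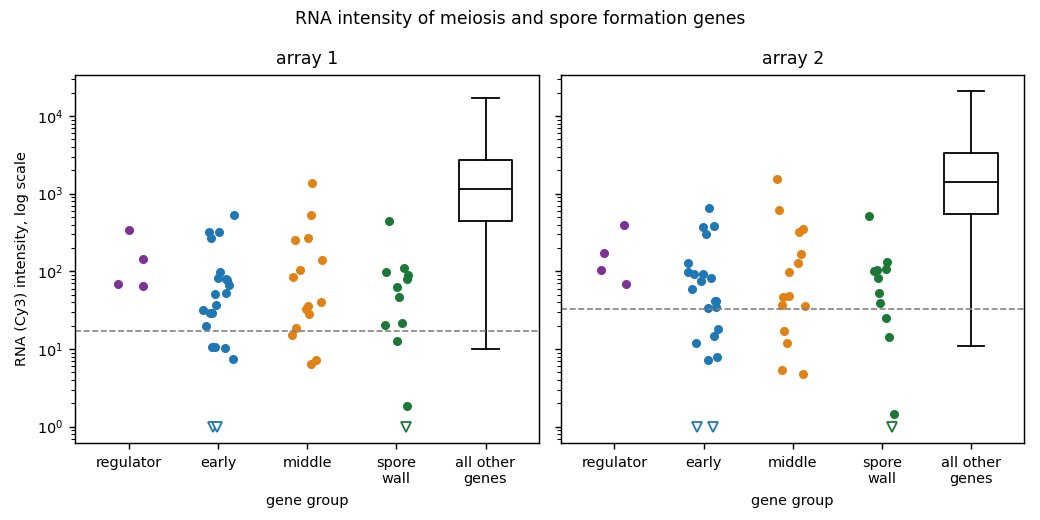
Points are the background-subtracted RNA (Cy3) intensity of each of the 53 genes on array 1 (left) and array 2 (right), on a log axis, beside a box for all other genes (median, quartiles and whiskers at the 5th and 95th percentile); triangles at the bottom are intensities under 1 and the dashed line is the floor. Most of the 53 genes lie under the lower quartile of the other genes, and 12 lie at or under the floor on both arrays.

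The stages overlapped widely. The median log2(RNA/DNA) was -2.96 for the 4 regulators, -4.09 for the 22 early genes, at most -4.15 for the 15 middle genes, where it is the bound of SPO75, and -4.37 for the 12 spore wall genes. The order of middle and spore wall genes turned on RNA alone, with -4.83 for middle and -4.40 for spore wall genes. It also turned with a lower floor from robust SDs, with -4.46 for middle and -4.41 for spore wall genes. The order of the stages differed between the arrays too. On array 1 the medians were -4.48 for middle, -4.47 for spore wall and -4.12 for early genes. On array 2 they were at most -3.82 for middle, at most -4.28 for spore wall and -4.05 for early genes. Middle genes also stood above early genes with gradient-corrected signals, at -4.13 against -4.15, and with no background subtracted, at -3.49 against -3.54. The number called below was 4 of 4 regulators, 21 of 22 early genes, 13 of 15 middle genes and 12 of 12 spore wall genes. No regulator was at the floor on either array, while RNA was at the floor on both arrays for 6 early, 3 middle and 3 spore wall genes. With the genes at the floor on either array left out of each list, the medians were -3.55 for early, -2.58 for middle and -3.54 for spore wall genes, so the middle genes then had the highest median. No test between stages was made, since each stage is a short list of genes on the same pair of arrays.

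**Figure D3:**
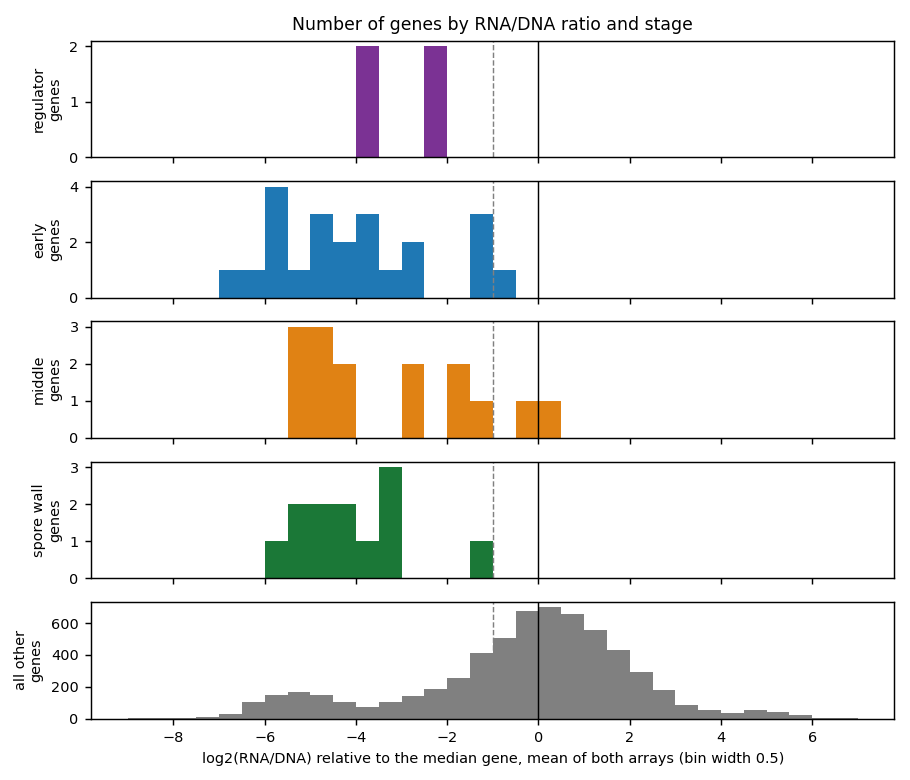
Histograms of log2(RNA/DNA) relative to the median gene (mean of both arrays, bins of 0.5) for regulator, early, middle and spore wall genes and, at the bottom, all other genes; the solid line is the median gene and the dashed line the threshold of -1. Most early, middle and spore wall genes lie in the range of the lower shoulder of the other genes, and the regulators lie between that shoulder and the main peak.

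The regulators were low but measurable. IME1 (YJR094C), which encodes the activator that starts the programme, had RNA signals of 342 on array 1 and 392 on array 2, with its 7 spots from 287 to 447 on array 1 and from 334 to 492 on array 2. Its log2(RNA/DNA) was -2.33 ± 0.06 (SD, n = 2 arrays; limma adjusted p = 7.45e-05), or 19.9% of the median gene. IME2 (YJL106W), the kinase gene that Ime1 turns on, had RNA signals of 144 and 172 and a ratio of -2.15 ± 0.01 (limma adjusted p = 6.56e-05). On the ratio the pair stood close together, but IME2 had an unusually weak DNA signal, at percentile 4.4 of all genes, which raises its ratio. On the RNA signal alone, relative to the median gene, IME1 was at -1.78 and IME2 at -2.99.

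NDT80 (YHR124W), the activator of the middle genes, had RNA signals of 68.4 and 103. Its ratio was -3.59 ± 0.12 (SD, n = 2; limma adjusted p = 7.26e-05). RIM4 (YHL024W), which encodes an RNA-binding protein that holds back translation of meiotic messages, had RNA signals of 64.1 and 68.3. Its ratio was -3.82 ± 0.08 (SD, n = 2; limma adjusted p = 5.68e-05). On each array the ratios of IME1 and IME2 were both above those of NDT80 and RIM4. The gap of more than 1 on the log2 scale was larger than any SD in the group. On RNA alone the order held, but IME2, at -2.99, was less than 1 above NDT80, at -3.90, with RIM4 at -4.25.

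Among the early genes, those that make or prepare the programmed DNA breaks were uniformly low. All 5 were called below, with a median of -4.94. SPO11 (YHL022C), which encodes the enzyme that cuts the DNA, had RNA signals of 28.7 and 41.2 and a ratio of -5.33 ± 0.08 (SD, n = 2; limma adjusted p = 5.15e-05). REC102 (YLR329W), whose protein forms the cutting core together with Spo11, had RNA signals of 37.3 and 41.2 and a ratio of -4.94 ± 0.11 (limma adjusted p = 5.43e-05). REC104 (YHR157W), the partner of Rec102, stood at -4.13 ± 0.05 with signals of 66.6 and 92.1. REC114 (YMR133W) and MEI4 (YER044C-A) encode proteins that bind each other and sit on the chromosome axes, yet they marked the ends of the group. REC114 had RNA signals of 10.6 and 11.9, under both floors, and a ratio of at most -6.22. MEI4 had signals of 96.7 and 129 and a ratio of -3.55 ± 0.12.

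The genes of the chromosome axis and of cohesion were all 4 called below but spanned more than 4 on the log2 scale. REC8 (YPR007C), the meiotic form of the ring-closing subunit of cohesin, had RNA signals of 32.2 and 33.6. Its ratio of -5.79 ± 0.02 (SD, n = 2; limma adjusted p = 5.15e-05), or 1.80% of the median gene, was the lowest of the 38 genes above the floor on both arrays. On RNA alone it was at -5.25, and ZIP2, at -5.30, AMA1, at -5.32, and DIT2, at -5.48, were lower. MEK1 (YOR351C), the kinase gene whose product steers repair towards the homologous chromosome, had signals of 0.92 and -3.82, and its ratio was at most -4.59. At the other end, RED1 (YLR263W), which encodes an axis core protein, had signals of 321 and 378 and a ratio of -1.42 ± 0.08. HOP1 (YIL072W), the gene of its partner on the axis, had signals of 78.9 and 82.3 and a ratio of -2.75 ± 0.17. The DNA signal of HOP1 was at percentile 3.6 of all genes, and on RNA alone it was at -3.96.

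Genes of strand exchange were also all 5 called below, with a median of -4.65, and 3 of them had RNA at the floor on at least 1 array. DMC1 (YER179W), the meiosis-specific recombinase gene, was the highest of them, with RNA signals of 77.3 and 93.2 and a ratio of -3.23 ± 0.07 (SD, n = 2; limma adjusted p = 5.83e-05). MEI5 (YPL121C) and SAE3 (YHR079C-A), whose products load Dmc1 onto single strands, were at the floor on both arrays. Their ratios were at most -5.85 for MEI5 and at most -4.65 for SAE3. The products of HOP2 (YGL033W) and MND1 (YGL183C) work as a pair with Dmc1. HOP2 had RNA signals of 19.5 and 18.3, under the floor of array 2 only, while MND1 had 50.4 and 59.7 and a ratio of -3.80 ± 0.15. On each array, MND1 lay above HOP2 by more than the SD of either.

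The 6 genes of synapsis and crossover formation were the highest group of early genes, with a median of -1.98 and none at the floor. Of these, 5 were called below. ZIP1 (YDR285W), which encodes the central protein of the synaptonemal complex, had RNA signals of 323 and 372 and a ratio of -1.38 ± 0.03. SPO16 (YHR153C), whose product helps to start its assembly, had signals of 266 and 307 and a ratio of -1.37 ± 0.07 (limma adjusted p = 0.000183). SPO22 (YIL073C), named ZIP4 in other work, had signals of 52.5 and 74.2 and a ratio of -4.04 ± 0.14. ZIP2 (YGL249W), whose product works with it, had signals of 29.4 and 34.4 and a ratio of -3.90 ± 0.11. The DNA signal of ZIP2 was at percentile 1.4 of all genes, and on RNA alone it was at -5.30, below SPO22 at -4.33. These genes do not form 1 level: ZIP1 and SPO16 differed by less than their SD, and both lay more than 2 above ZIP2 and SPO22 on the log2 scale.

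MSH4 (YFL003C) and MSH5 (YDL154W) encode the subunits of 1 MutS complex that stabilises crossover intermediates. MSH4 had RNA signals of 81.4 and 98.4 and a ratio of -2.57 ± 0.04, while MSH5 had 530 and 647 and a ratio of -0.87 ± 0.04. The DNA signal of MSH4 was at percentile 2.3 of all genes, and on RNA alone it was at -3.81. MSH5 passed the adjusted p (limma, 0.000333) but not the log2 threshold, and it stood at 54.8% of the median gene. With the RNA channel alone it was at -1.10 and called below. Both early genes outside these groups were at the floor on both arrays. MER1 (YNL210W), which encodes a splicing activator for a few meiotic messages, had RNA signals of 7.46 and 7.92 and a ratio of at most -6.57. SPO13 (YHR014W), needed for sister chromatids to stay together in the first division, had signals of 10.2 and 14.7 and a ratio of at most -5.56.

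Middle genes held the 2 highest genes of all as well as 4 with RNA at the floor on at least 1 array. AMA1 (YGR225W), the activator of the anaphase-promoting complex that is made in meiosis, had RNA signals of 28.1 and 35.3 and a ratio of -4.87 ± 0.02 (SD, n = 2; limma adjusted p = 5.15e-05). The kinase genes SPS1 (YDR523C) and SMK1 (YPR054W), both needed for spore wall assembly, were low. SPS1 had signals of 40.0 and 48.6 and a ratio of -4.46 ± 0.03. SMK1, a MAP kinase gene, had signals of 15.3 and 12.1, under both floors, and a ratio of at most -5.15. SPO77 (YLR341W), which acts with Sps1, stood beside it at -4.53 ± 0.0035 with signals of 32.7 and 36.6. SSP2 (YOR242C), whose product activates Smk1, was higher, with signals of 268 and 325 and a ratio of -1.79 ± 0.02.

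The prospore membrane, which grows from the spindle pole body around each nucleus, is built by the next genes. SPO20 (YMR017W), the SNARE gene for vesicle fusion at this membrane, had RNA signals of 36.0 and 46.3 and a ratio of -5.13 ± 0.07 (SD, n = 2; limma adjusted p = 5.15e-05). SSP1 (YHR184W), which encodes a coat protein of the leading edge, had signals of 140 and 165 and a ratio of -2.78 ± 0.06. SPO19 (YPL130W) and SPO75 (YLL005C) were at the floor on both arrays. Their signals were 6.49 and 5.42 for SPO19 and 7.23 and 4.80 for SPO75. The ratios were at most -5.32 for SPO19 and at most -4.15 for SPO75. SPO1 (YNL012W), of the phospholipase B family, was the least reduced gene called in this group. It had signals of 252 and 346 and a ratio of -1.15 ± 0.08 (limma adjusted p = 0.000322). Its DNA signal was at percentile 5.5 of all genes, and on RNA alone it was at -2.09.

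The outer plaque of the spindle pole body, where that membrane starts, was represented by SPO21 and SPO74. SPO74 (YGL170C) had RNA signals of 18.5 and 16.8, under the floor of array 2, and a ratio of at most -4.51. SPO21 (YOL091W) had signals of 104 and 126 and a ratio of -1.64 ± 0.07. Its DNA signal, 1051 and 1261, was at percentile 0.4 of all genes, and on RNA alone it stood at -3.45 relative to the median gene. The 53 genes as a whole had low DNA signals, with a median at percentile 24.6, so that their median was lower on RNA alone, at -4.33, than on the ratio.

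Of the middle genes, 2 were not called. SPO73 (YER046W), needed for the prospore membrane to extend, had RNA signals of 537 and 609 and a ratio of -0.23 ± 0.04 (SD, n = 2; limma adjusted p = 0.00819), or 85.0% of the median gene. Its DNA signal was at percentile 5.2 of all genes, and with the RNA channel alone it was at -1.13 and called below. SPR6 (YER115C), whose role is not stated here, was the only 1 of the 53 above the median gene. It had RNA signals of 1369 and 1545, with its 7 spots from 1017 to 1564 on array 1 and from 1391 to 1645 on array 2. Its ratio of 0.29 ± 0.01 (limma adjusted p = 0.00364) put it at percentile 56.4 of all genes, and it was at 0.21 on RNA alone. SPS4 (YOR313C), the other middle gene with no role stated here, was called below at -2.58 ± 0.10.

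All 12 spore wall genes were called below. The inner layers of the wall are made of mannan and glucan, and the 4 glucan enzymes had a median of -3.89. GAS4 (YOL132W) and GAS2 (YLR343W) encode enzymes that lengthen glucan chains. GAS4 had RNA signals of 46.1 and 53.3 and a ratio of -5.06 ± 0.08 (SD, n = 2; limma adjusted p = 5.15e-05), and GAS2 had 90.5 and 100 and a ratio of -3.49 ± 0.06. SPR1 (YOR190W), an exoglucanase gene, had signals of 80.1 and 106 and a ratio of -4.29 ± 0.03. CRR1 (YLR213C), which encodes a glycoside hydrolase of the spore wall, was the highest wall gene, with signals of 443 and 523 and a ratio of -1.05 ± 0.01 (limma adjusted p = 0.000175). This call ended with signals corrected for gradients across the slide, where CRR1 was at -0.97.

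The outer layers of chitosan and dityrosine are found in spores and not in growing cells. CDA1 (YLR307W) and CDA2 (YLR308W) encode chitin deacetylases, which turn chitin into chitosan. CDA1 had RNA signals of 63.2 and 81.6 and a ratio of -3.06 ± 0.07 (SD, n = 2; limma adjusted p = 6.5e-05), and CDA2 had 12.7 and 14.2, under both floors, and a ratio of at most -4.69. DIT1 (YDR403W) and DIT2 (YDR402C) encode the enzymes of dityrosine synthesis. DIT1 had signals of 110 and 131 and a ratio of -3.12 ± 0.08, and DIT2 had 20.5 and 38.6 and a ratio of -4.45 ± 0.24. On both arrays CDA1 was above CDA2 and DIT1 above DIT2.

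OSW1 (YOR255W) and OSW2 (YLR054C) are named for outer spore wall defects. OSW1 had RNA signals of -0.60 and -0.94, close to 0, and a ratio of at most -5.88. OSW2 had signals of 98.2 and 105 and a ratio of -3.58 ± 0.05. SPS2 (YDR522C), a wall gene of the ECM33 family, had signals of 1.83 and 1.45 and a ratio of at most -5.34. SPS100 (YHR139C), which acts late in wall maturation, had signals of 21.9 and 25.3 and a ratio of at most -4.84, with RNA at the floor of array 2.

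Several of these genes have relatives that work in growing cells, and on 12 such pairs the meiotic gene was set against its relative on each array. The meiotic gene was lower in all 12 pairs on both arrays. The median difference was at most -6.16 in log2(RNA/DNA), since the bound of SMK1 enters it. The pairs were chosen with earlier results of these data known, and some pairs are not reported here. GAS1 is the relative of both GAS2 and GAS4. With 2 arrays an exact two-sided sign-flip test of a pair cannot give a p under 0.5, so these are descriptions with their SD. Probe sequences are not used here, so signal from a relative at a meiotic probe, or between the related CDA1 and CDA2, was not tested.

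**Figure D4:**
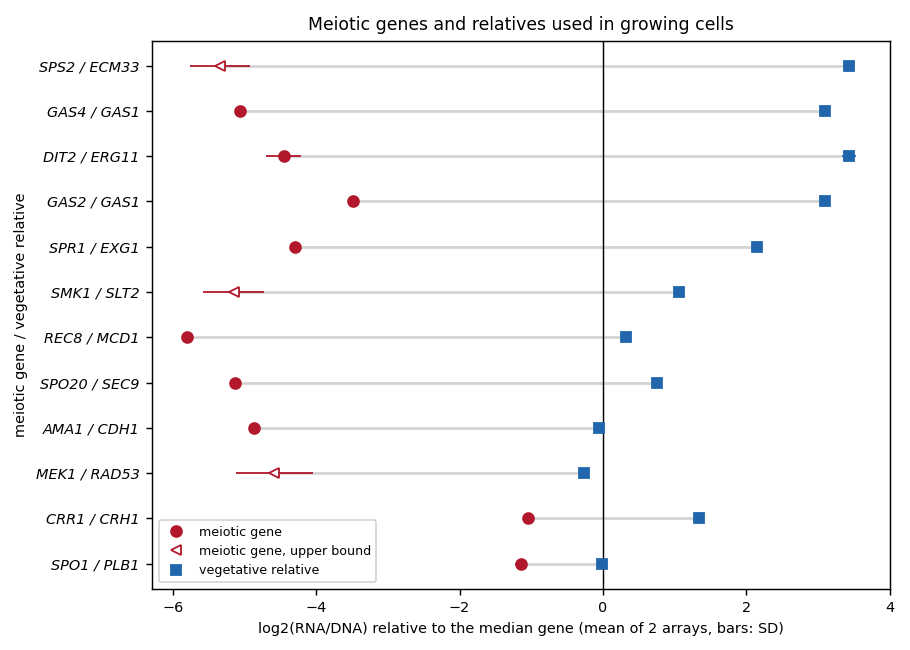
For each pair, the meiotic gene (red circle, or open triangle where its RNA is at the floor and the value is an upper bound) and its relative used in growing cells (blue square) are placed by log2(RNA/DNA) relative to the median gene, mean of 2 arrays with SD bars. Every meiotic gene lies left of its relative, with differences between -1.13 for SPO1 and PLB1 and at most -8.78 for SPS2 and ECM33.

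In chromosome metabolism, REC8 minus MCD1, the cohesin gene of the mitotic cycle, was -6.12 ± 0.0042 in log2(RNA/DNA) (SD, n = 2), or 69.6-fold lower, and MCD1 had RNA signals of 1486 and 1902. AMA1 was 28.2-fold lower than CDH1, which activates the same complex in the mitotic cycle, and MEK1 was at least 20.0-fold lower than RAD53, a checkpoint kinase gene. For membrane and signalling genes, SPO20 was 59.1-fold lower than SEC9, the SNARE gene of normal secretion. SMK1 was at least 73.8-fold lower than SLT2, the MAP kinase gene of the vegetative cell wall.

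The widest gaps were among enzymes of the wall. GAS4 was 286-fold and GAS2 96.4-fold lower than GAS1, which does the same work in the vegetative wall and had RNA signals of 26782 and 32428. DIT2 was 237-fold lower than ERG11, the cytochrome P450 gene of ergosterol synthesis, and SPR1 was 86.7-fold lower than EXG1, the main exoglucanase gene. SPS2 was at least 438-fold lower than ECM33. CRR1 was 5.26-fold lower than CRH1, of the same glycosidase family. SPO1 and PLB1, a phospholipase B gene, had the smallest gap, at 2.19-fold. These sizes depend on the DNA channel, where GAS1, CRH1, EXG1 and ECM33 lay between percentiles 92.2 and 95.5 of all genes. On RNA alone, the log2 difference was -4.22 for CRR1 and CRH1, against -2.39 on the ratio. It was -8.27 for GAS2, -9.22 for GAS4, -7.14 for SPR1, -9.71 for DIT2, at most -10.65 for SPS2 and -1.75 for SPO1 against their relatives. For MEK1 it was at most -4.89 and for SMK1 at most -6.75. Other gaps narrowed on RNA alone. REC8 minus MCD1 was -5.68 against -6.12 on the ratio, SPO20 minus SEC9 -5.62 against -5.88, and AMA1 minus CDH1 -4.79 against -4.82.

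A second list, of 55 further genes of the pathway, was read in the same fit. Other genes of meiotic recombination, synapsis and segregation had 6 of 8 called below, against 31.2% of all genes, and a median of -3.00. NDJ1 was the highest of these 8, at -0.04 ± 0.05 and not called, or -0.82 on RNA alone. Genes of spore formation outside the 53 had 17 of 18 called below, 7 of them with RNA at the floor on both arrays, and a median of -4.49. Among those at the floor, LDS2 had a ratio of at most -6.51 and SPR3, a septin gene of sporulation, of at most -6.04. ADY3, the spore formation gene not called, was at -0.60 ± 0.11, or -1.25 on RNA alone. Recombination genes that mitotic cells also use had 6 of 14 called below and 1 above, against 31.2% and 28.2% of all genes. Their median was -0.67, and none was at the floor. SMC1, a cohesin gene, was the highest at 1.14 ± 0.0003, and PMS1, a mismatch repair gene, followed at 0.76 ± 0.09. The call of SMC1 ended on RNA alone, at 0.62, and with genes at the floor left out, at 0.95, and PMS1 changed sign on RNA alone, to -0.44.

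**Figure D5:**
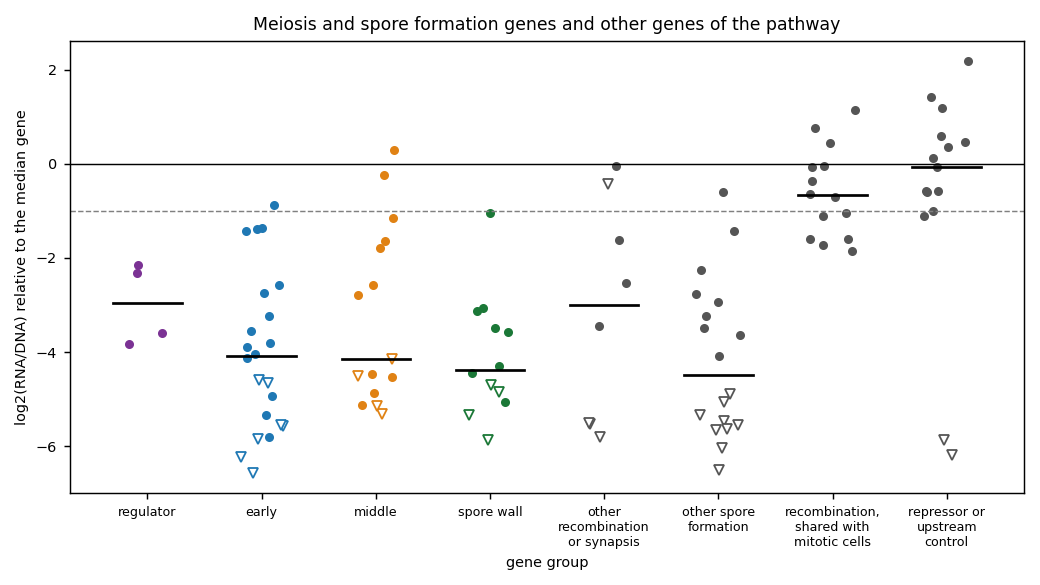
Each symbol is 1 gene's log2(RNA/DNA) relative to the median gene (mean of both arrays), for the 4 stages in colour and for 4 groups of other pathway genes in grey; open triangles are upper bounds and black bars are group medians. Most genes specific to recombination or spore formation lie low, though NDJ1 lies near the median gene. The genes shared with mitotic cells and most repressors and upstream controls lie around the median gene.

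The 15 repressors and upstream controls had a median of -0.08, with 4 called below, 3 called above and 8 not called. The share called below, 26.7%, was near the 31.2% of all genes, and 28.2% of all genes were called above. UME6 (YDR207C), which holds the early genes off, had RNA signals of 1005 and 1117 and a ratio of -0.59 ± 0.08. The genes of its corepressors SIN3 and RPD3 were at 1.18 ± 0.03, called above, and 0.59 ± 0.02, not called. SIN3 was at 0.98 and no longer called when genes at the floor were left out. SUM1 (YDR310C), which holds the middle genes off, had RNA signals of 2243 and 2572 and a ratio of 0.36 ± 0.04. Of its partners, HST1, a deacetylase gene, was called above at 1.42 ± 0.0013, and RFM1 was called below at -1.12 ± 0.01. RME1 (YGR044C), the haploid repressor of IME1, had RNA signals of 1048 and 1557 and a ratio of 0.13 ± 0.14, and its sign changed to -0.06 when genes at the floor were left out.

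The rest of these controls were uneven. MCK1, a kinase gene, was called above at 2.18 ± 0.10, and RIM11, a kinase gene whose product acts on Ime1, was at -0.08 ± 0.10. The kinase gene RIM15 was at 0.47 ± 0.03 and the regulator gene RIM101 at -0.60 ± 0.02, and both changed sign on RNA alone. IME4 (YGL192W), SLZ1 (YNL196C) and MUM2 (YBR057C) encode parts of the complex that methylates messenger RNA in meiosis. IME4 was under both floors, with a ratio of at most -5.86, and so was SLZ1, at most -6.19, while MUM2 had RNA signals of 1188 and 1475 and a ratio of -0.58 ± 0.06, or 0.08 on RNA alone. SSN8, a cyclin gene of the Mediator complex, had RNA signals of 490 and 602 and was called below at the threshold itself, and the call ended under 4 settings, where it reached -0.96.

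On the chromosomes, the low genes sat among ordinary ones. In the gene order of RefSeq assembly R64, 96 pairs of a listed gene and its direct neighbour had values. The listed gene was lower in 85 of them, and no baseline of other neighbouring genes was computed. The 94 neighbours outside the list had a median of 0.11, with 26 called below and 30 above, against 31.2% and 28.2% of all genes. In 3 cases both neighbours were listed genes: DIT1 and DIT2, whose starts face each other, SPO22 and HOP1, whose starts also face each other, and SPS1 and SPS2, on 1 strand. For the genes not called below, SPR6 lies between BOI2, at 0.65 ± 0.05, and SLX8, at -0.12 ± 0.01. MSH5 lies between CLB3, at 0.49 ± 0.01, and SAS10, called above at 1.74 ± 0.07. SPO73 lies between ACA1, at -0.11 ± 0.04, and SAP1, called below at -1.03 ± 0.02.

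The widest steps between neighbours, picked after their values were seen, were next to genes of abundant messages. SPO77 minus RPP0, a ribosomal protein gene, was -9.56 in log2(RNA/DNA). For genes at the floor, MER1 minus SSB2, a ribosome-bound chaperone gene, was at most -10.07, and SPO19 minus RPL5, a ribosomal protein gene, at most -9.28. OSW1 minus SEC63, a gene of protein import into the endoplasmic reticulum, was at most -8.38. Whether the labelling kept the strand of the RNA is not given in the sources used here, so RNA of a gene and of its opposite strand cannot be told apart.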

How the data were processed

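Per the submitters' processing notes, the deposited spot intensities come from Agilent Feature Extraction 10.5.1.1. The background-subtracted intensity of each channel, which can be negative, was used, per the file headers. On both arrays, a spot needed a DNA signal well above background and no saturation or non-uniformity in either channel (43721 of 43792 gene spots, 6250 of 6256 genes). RNA under 3 SD of the 153 negative control spots was raised to that floor. A gene's value is the median over spots of log2(RNA/DNA), centred on the median gene of the array. Unlike raw RNA intensities, these ratios set each probe against its own DNA signal, so genes are compared on them, and a weak DNA signal raises them. Coordinates are not printed, since the build of the array design is not given in the sources used here.

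Each of the 6250 genes was tested against the median gene in an intercept-only limma model (version 3.58.1, R 4.3.3; no intensity trend). Calls needed a Benjamini-Hochberg adjusted p under 0.05 and a log2 value at least 1 from 0. Summaries were computed with pandas 2.3.3 and numpy 2.4.6 under Python 3.11.15, and figures drawn with matplotlib 3.10.9. On simulated data for this comparison (6250 genes), 0% of 50 genes shifted by -0.75 were called, 80% at -1.25, 72% at -1.5, 88% at -2 and 0% of 6050 unshifted genes. The number of arrays, 2, limits the precision. The genes, stages, pairs and pathway list were chosen with earlier results of these data known, and some pairs are not reported here. Named in full were the 5 highest and 5 lowest measured genes, the regulators, the 2 highest and 2 lowest of each other stage and all genes not called below. Among the rest of the pathway these were the controls and the 2 highest and 2 lowest others, with NDJ1 and ADY3 added as the highest of their groups. Alternatives changed the signal, background, spot summary, spot filter, floor, reference channel, normalization, test, thresholds and arrays used.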

Additional observations from a re-analysis of the deposited data

How the results depend on the processing

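The 2 arrays, 1 probe per gene and the RNA floor set the limits here. Under the floor a ratio is only a bound, and order among genes at the floor cannot be read. A value under the floor does not mean that no RNA was detected. On array 2, SPS100 and LDS2 were under the floor, yet all 7 spots of each were well above background by the scanner software's call. Of 462 values of the 53 genes under other settings, 458 kept their direction and their side of the thresholds. The others were MSH5, called below on RNA alone and with genes at the floor left out, SPO73 on RNA alone, and CRR1, whose call ended with gradient-corrected signals. With genes at the floor left out of the data, 36 of the 38 genes kept were called below. With all 53 genes the count called below was 50, and 52 on RNA alone or by adjusted p alone. It was 43 at a log2 threshold of 2 and 46 of 49 for the genes named on the arrays, a choice made after seeing the data. All reported pairs with relatives kept the meiotic gene lower where they could be formed (12, or 9 with genes at the floor left out).

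With a floor from robust SDs (2.065 and 1.003), 3 in place of 12 genes were at the floor on both arrays, and the median difference from relatives was -6.51. On RNA alone the medians were -4.33 for all 53 genes, -3.45 for regulators, -4.76 for early and -4.83 for middle genes. With no background subtracted they were -3.41 for all, -2.69 for regulators, -3.54 for early, -3.49 for middle and -3.67 for spore wall genes, and -5.24 for the difference from relatives. With genes at the floor left out, which raised the median gene and so moved the other ratios by -0.19, they were -3.56 for all, -3.15 for regulators, -3.75 for early, -2.77 for middle and -3.73 for spore wall genes. Gradient-corrected signals gave -4.15 for early genes, and the mean over spots gave -2.92 for regulators. With each array left out in turn, the medians ran from -4.09 to -3.88 for all, from -2.98 to -2.94 for regulators, from -4.12 to -4.05 for early, from -4.48 to -3.82 for middle and from -4.47 to -4.28 for spore wall genes. The count at the floor was 12 and 15 on the arrays taken singly, and the difference from relatives at most -6.29 and at most -6.03. Beyond the 53 genes, RNA alone reversed IRR1 (0.42), MUM2 (0.076), PMS1 (-0.44), RAD52 (0.30), RIM101 (0.16) and RIM15 (-0.17). IRR1 also reversed with gradient-corrected signals (0.0092) and with the mean over spots (0.038), and RME1 with genes at the floor left out (-0.060). For these, the cause was not tested. No paired analysis was possible because the arrays form 1 group, with RNA and DNA already paired in each ratio. Sequence comparisons of promoters and proteins were planned and not run.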

Other observations

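The arrays carry their own short process annotation for each gene, which was not used to choose the list. Of the 53 genes, 22 are annotated there to meiosis or sporulation, and all 22 were called below, with a median log2(RNA/DNA) of -3.92. Another 46 genes outside the list carry the same annotation. Of those 46, 17 were called below, 10 above and 19 were not called, with a median of -0.45. Over all genes, 31.2% were called below and 28.2% above. The annotation thus also covers genes at work in growing cells, and BFR1, at 2.90, was the highest of them, while SLZ1, at the floor on both arrays, was at most -6.19. BFR1 was singled out after its value was seen.

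PCH2, whose product checks meiotic recombination, had a DNA signal of 107 on array 1 and 104 on array 2, at percentile 0.1 of all genes. Its RNA signals were -0.50 and 0.04, under both floors, and its ratio of at most -0.43 was not called. With so little DNA signal at the probe, the ratio says little of its RNA level.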
